A study of Mus musculus with 39 samples.

Results

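The genes described here are 9 genes of osteoclast differentiation and bone resorption, chosen by symbol: Tnfrsf11a, Oscar, Nfatc1, Dcstamp, Ocstamp, Acp5, Ctsk, Mmp9 and Atp6v0d2. All 9 were among the 23337 symbols of the deposited count tables, and 8 of them, all except Oscar, were among the 12450 genes kept by the filter on low counts. RNA was measured in 39 libraries of sorted cells from C57BL/6 mice aged 21 to 37 weeks, in 13 groups of 3 libraries each. The HUPO mice (Flipflox/floxCD11ccre) had established arthritis and carried 2 floxed copies of Flip, the inhibitor of death receptor signalling, with a cre recombinase under CD11c, an integrin of many macrophages and dendritic cells. The control mice (Flipflox/floxCD11c+) carried the same floxed alleles and were littermates or were matched for age and gender. Blood gave 2 populations of monocytes, the classical (CM) and the non-classical (NCM). From the ankle came synovial macrophages with high F4/80 (FH1 and FH2) or intermediate F4/80 (FI1 and FI3), and a further intermediate population, FI2, was collected in HUPO mice only. Levels are CPM, counts scaled to library totals adjusted by TMM, given as mean ± SD with n = 3 unless stated.

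Osteoclasts are the bone-resorbing cells of the monocyte and macrophage lineage, formed when precursors fuse under the cytokines M-CSF and RANKL. RANKL binds RANK, the product of Tnfrsf11a, and with co-stimulation through immunoreceptors such as the one encoded by Oscar it raises the transcription factor NFATc1, the master regulator of the programme. NFATc1 drives genes of cell fusion (Dcstamp, Ocstamp, Atp6v0d2) and of resorption (Acp5, Ctsk, Mmp9). In inflamed joints osteoclasts erode the bone next to the synovium. Several of these genes are also used by other cells: Mmp9 by neutrophils, Ctsk by fibroblasts, Dcstamp by dendritic cells and Acp5 by macrophages at large.

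The libraries held 3116615 to 14100712 counts each. A total of 3 counts over a group, taken as the floor, was worth 0.105 to 0.179 CPM, and this floor covers counting error only. The F4/80 gene (Emr1 in the files) was at 1063 to 1502 CPM in control FH libraries and at 231 to 841 CPM in control FI libraries. Of markers that define a mature osteoclast, Calcr, the calcitonin receptor, had 0 counts in all 39 libraries. Neutrophil markers summed to 18736 to 33855 CPM in the 6 FI1 libraries of both arms and to at most 12051 CPM in any other library. Their defining gene Ngp was at 2562 to 5660 CPM in those 6 libraries. Libraries with more Xist than Y-linked counts numbered 3 of 3 in HUPO FI1, FI2 and FI3, 3 of 3 in control FI1 and 1 of 3 in control FI3. They numbered 2 of 3 in each FH group of either arm. In blood they numbered 0 of 3 in both control groups and 2 of 3 in both HUPO groups, so the arms differ in this there too. Fewer cells of a type and less RNA per cell cannot be told apart in these bulk libraries.

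In mm10 (GENCODE M21) Tnfrsf11a lies on chromosome 1 at 105780718 to 105847981, plus strand, and Ctsk on chromosome 3 at 95499256 to 95509362, plus strand. Acp5 lies on chromosome 9 at 22126727 to 22135711, minus strand, where the non-coding gene 6530413G14Rik overlaps it on the other strand. No strand-specific step is named for these libraries, so reads of such a pair cannot be told apart. Mmp9 (164940780 to 164955850, plus strand) and Ocstamp (165393760 to 165400405, minus strand) both lie on chromosome 2. Atp6v0d2 lies on chromosome 4 (19876841 to 19922605, minus strand), Dcstamp on chromosome 15 (39745930 to 39760938, plus strand) and Oscar on chromosome 7 (3609813 to 3616157, minus strand).

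Promoter windows (250 bases before to 50 after a start site, RefSeq on GRCm38.p6) were matched for 4 of the 9 genes. Acp5 and Ctsk are shown because their HUPO FI3 levels carry the results below, and Tnfrsf11a because RANK is the receptor at the head of the pathway. Capitals mark GGAAA, the core recognised by NFAT factors, or its reverse complement TTTCC. Acp5 has 3 annotated start sites.
Acp5 start site 1, chr9:22135697-22135996, minus strand: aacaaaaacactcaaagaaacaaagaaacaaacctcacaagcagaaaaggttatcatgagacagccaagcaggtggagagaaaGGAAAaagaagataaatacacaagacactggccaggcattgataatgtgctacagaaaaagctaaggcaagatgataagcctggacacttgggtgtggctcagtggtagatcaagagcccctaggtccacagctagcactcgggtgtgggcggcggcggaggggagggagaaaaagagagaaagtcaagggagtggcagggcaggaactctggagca
Acp5 start site 2, chr9:22131816-22132115, minus strand: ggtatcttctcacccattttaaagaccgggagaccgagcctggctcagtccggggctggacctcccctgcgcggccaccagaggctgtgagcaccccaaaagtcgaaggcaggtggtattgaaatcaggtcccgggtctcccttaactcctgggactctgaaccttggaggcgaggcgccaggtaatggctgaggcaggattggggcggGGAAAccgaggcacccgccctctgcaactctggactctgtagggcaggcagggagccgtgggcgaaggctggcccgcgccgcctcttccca
Acp5 start site 3, chr9:22130549-22130848, minus strand: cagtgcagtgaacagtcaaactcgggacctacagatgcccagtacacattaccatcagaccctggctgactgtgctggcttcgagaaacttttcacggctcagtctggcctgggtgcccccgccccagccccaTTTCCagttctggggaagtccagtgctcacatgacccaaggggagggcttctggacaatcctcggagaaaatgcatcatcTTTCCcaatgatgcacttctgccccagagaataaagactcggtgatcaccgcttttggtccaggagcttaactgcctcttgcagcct
Ctsk, chr3:95498960-95499259, plus strand: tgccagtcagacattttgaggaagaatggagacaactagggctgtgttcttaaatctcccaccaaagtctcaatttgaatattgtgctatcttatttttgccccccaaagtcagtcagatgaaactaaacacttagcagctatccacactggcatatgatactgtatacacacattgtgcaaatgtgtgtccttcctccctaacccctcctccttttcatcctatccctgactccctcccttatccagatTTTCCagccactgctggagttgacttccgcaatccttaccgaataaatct
Tnfrsf11a, chr1:105780473-105780772, plus strand: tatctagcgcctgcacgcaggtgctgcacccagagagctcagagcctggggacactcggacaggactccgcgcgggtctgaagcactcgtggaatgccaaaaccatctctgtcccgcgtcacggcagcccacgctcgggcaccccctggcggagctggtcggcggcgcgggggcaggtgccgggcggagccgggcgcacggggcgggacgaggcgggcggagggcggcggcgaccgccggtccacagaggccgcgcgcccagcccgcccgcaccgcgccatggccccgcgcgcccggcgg
A GGAAA core on either strand was found in all 3 Acp5 windows and in the Ctsk window but not in the Tnfrsf11a window. Of 32851 promoter windows of this length, 61.3% held at least 1 such core, so a match is common and describes the letters only. No AP-1 site TGANTCA, counted on both strands and held by 7.81% of windows, was present in the 5 windows shown.

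**Figure D1:**
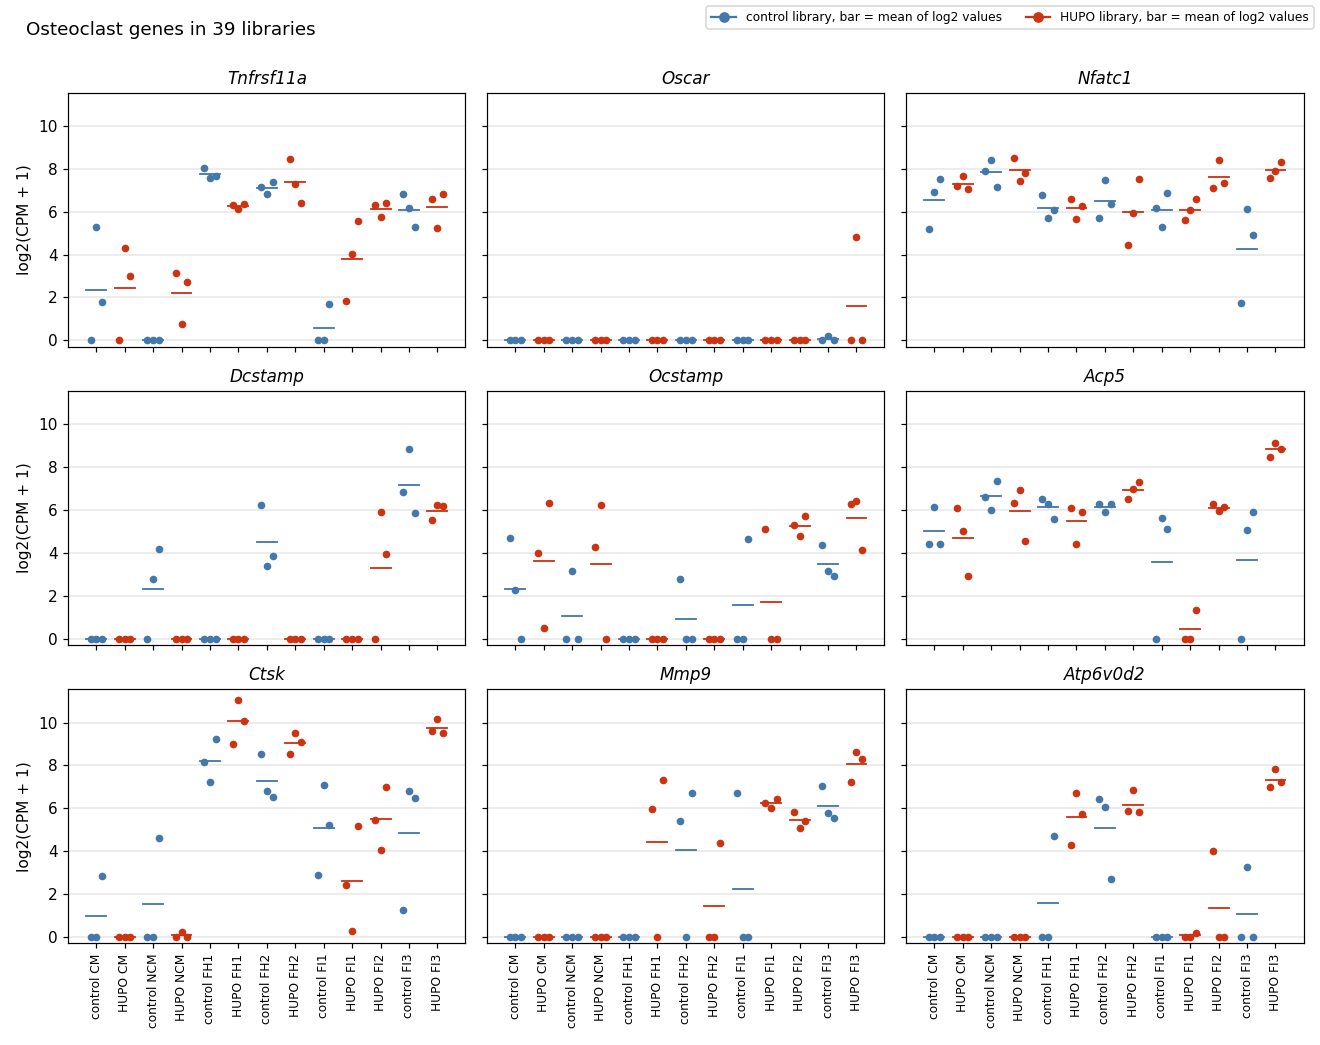
CPM of the 9 genes in each of the 39 libraries, as log2(CPM + 1) on the vertical axis, by population and arm; points are libraries and bars are means of the log2 values over 3 libraries. Acp5, Mmp9 and Atp6v0d2 have their highest group in HUPO FI3, Tnfrsf11a in control FH1, Ctsk in HUPO FH1 and Dcstamp in control FI3.

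Tnfrsf11a encodes RANK, the receptor for RANKL. Its highest group was control FH1, at 259, 191 and 204 CPM. Control FH2 held 142, 114 and 165 CPM, and HUPO FH2 held 349, 158 and 84.7 CPM. HUPO FH1 held 79.8, 68.8 and 82.4 CPM, so every HUPO FH1 library was below every control FH1 library. The FI3 groups were alike in range, at 113, 71.5 and 38.3 CPM in control and 95.4, 36.4 and 113 CPM in HUPO. HUPO FI2 held 78.3, 53.2 and 83.2 CPM. The gene was low in FI1 of either arm, with 0, 0 and 2.26 CPM in control and 2.59, 15.2 and 46.9 CPM in HUPO. In blood it did not exceed 38.2 CPM in any library and had 0 counts in all 3 control NCM libraries. In the order of group means, control FH1, HUPO FH2 and control FH2 overlapped as neighbours, and the next group, HUPO FI3, lay below control FH2 without overlap.

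Oscar encodes an immunoreceptor that pairs with the adaptor Fcer1g. It had counts in 2 of the 39 libraries, 1 of HUPO FI3 with 27.3 CPM and 1 of control FI3 with 0.143 CPM. The other 37 libraries were at 0, and the gene entered no test.

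Nfatc1, the transcription factor of the programme, lies on chromosome 18 at 80606205 to 80713071, minus strand, where an antisense gene overlaps it. It was the only one of the 9 with counts in all 39 libraries. The blood groups had means of 256 ± 102 CPM in HUPO NCM, 242 ± 98.4 in control NCM, 159 ± 36.0 in HUPO CM and 114 ± 74.9 in control CM. Among ankle groups HUPO FI3 stood highest, with 191, 238 and 325 CPM, followed by HUPO FI2 with 137, 336 and 159.8 CPM. The FH groups and both FI1 groups had means between 70.2 and 103 CPM. Control FI3 was the lowest of the 13 groups, with 2.31, 68.6 and 29.3 CPM. All neighbours in this order overlapped.

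Dcstamp and Ocstamp encode the transmembrane proteins that osteoclast precursors need for fusion. Dcstamp was highest in control FI3, with 113, 454 and 57.4 CPM, and HUPO FI3 held 45.0, 73.6 and 71.6 CPM. The ranges of these groups overlapped. Outside FI3 it was seen in control FH2 (75.4, 9.57 and 13.6 CPM), in 2 of 3 HUPO FI2 libraries (59.6 and 14.7 CPM) and in 2 of 3 control NCM libraries (5.80 and 17.1 CPM). The other 8 groups had 0 counts. Markers of dendritic cells, which also express Dcstamp, summed to 2063 to 2412 CPM in control FI3, with counts of all 10 listed markers, to 74.3 to 298 CPM in HUPO FI3 and to at most 514 CPM in any other library. Their part in the Dcstamp level was not tested.

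Ocstamp had counts in 20 libraries and a mean of 59.6 ± 37.7 CPM in its highest group, HUPO FI3 (76.7, 85.7 and 16.3 CPM). HUPO FI2 held 38, 26.9 and 51.9 CPM and control FI3 held 19.4, 7.99 and 6.64 CPM. Control FH1, HUPO FH1 and HUPO FH2 had 0 counts. Blood monocytes carried it in some libraries, up to 79.9 CPM in HUPO CM and 74.3 CPM in HUPO NCM.

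Acp5 encodes tartrate-resistant acid phosphatase, the classic histochemical marker of osteoclasts. HUPO FI3 held 356, 562 and 464 CPM and did not overlap any of the other 12 groups, whose highest library, of control NCM, held 165 CPM. Next came HUPO FH2 with 91.2, 127 and 159 CPM. Control FI3 held 0, 32.8 and 58.5 CPM. HUPO FI1 held 0, 0 and 1.54 CPM, the lowest group, whereas HUPO FI2 held 75.7, 60.1 and 70.1 CPM.

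Ctsk encodes cathepsin K, the collagen-degrading protease of the resorption pit. Its highest group was HUPO FH1, with 518, 2133 and 1076 CPM. HUPO FI3 followed with 777, 1157 and 730.0 CPM and HUPO FH2 with 370.3, 736 and 542 CPM. Control FH1 held 288, 147 and 597 CPM and control FH2 held 365, 109 and 91.1 CPM. Control FI3 held 1.38, 109 and 87.9 CPM. Blood was close to 0, with 3 of 12 libraries carrying any count and 23.2 CPM as the highest value. The 5 highest groups were all FH groups or HUPO FI3, and each overlapped its neighbour.

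Mmp9 encodes gelatinase B, which cleaves denatured collagen. It had 0 counts in all 12 blood libraries and in control FH1. HUPO FI3 held 150.0, 397 and 311 CPM and did not overlap the next group, control FI3, with 129, 54.1 and 45.1 CPM. HUPO FH1 held 61.7, 0 and 160.0 CPM, so its highest library lay above the lowest of HUPO FI3. HUPO FI1 held 75.1, 63.1 and 85.4 CPM and HUPO FI2 held 55.4, 33.0 and 41.9 CPM. Neutrophil markers, summed, were at 773 to 1687 CPM in HUPO FI3 and at 0.461 to 31.2 CPM in control FI3, and at 22527 to 33855 CPM in HUPO FI1. Their part in the Mmp9 levels was not tested.

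Atp6v0d2 encodes a subunit of the proton pump that acidifies the resorption pit and is also needed for fusion. It had 0 counts in all blood libraries and in control FI1. HUPO FI3 held 125, 227 and 146 CPM and did not overlap the next group. That group was HUPO FH2, with 56.8, 114 and 55.0 CPM. HUPO FH1 held 18.3, 104 and 52.2 CPM and control FH2 held 84.9, 65.7 and 5.58 CPM. Control FI3 carried the gene in 1 of 3 libraries, at 8.42 CPM.

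Levels were compared between genes only after division by exon length. In HUPO FI3, Ctsk stood at 587 ± 155 CPM per kb, Acp5 at 269 ± 60.1, Mmp9 at 90.1 ± 39.5 and Atp6v0d2 at 65.4 ± 21.1. Nfatc1 stood at 33.8 ± 9.15 CPM per kb, Dcstamp at 30.9 ± 7.78, Ocstamp at 16.3 ± 10.3, Tnfrsf11a at 16.2 ± 7.99 and Oscar at 4.93 ± 8.53. Ctsk and Acp5 had the highest mean levels per length.

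The arms were compared within each of the 6 populations collected in both, which asks whether these genes differ between arthritic HUPO mice and controls. The clearest contrast lay in FI3. Acp5, Ctsk, Mmp9, Atp6v0d2 and Nfatc1 had every HUPO FI3 library above every control FI3 library, 5 of 8 genes, where 10.2% of all genes tested did. Acp5 averaged 461 ± 103 CPM in HUPO and 30.4 ± 29.3 in control (log2 fold change 3.92, SE 1.34), and Ctsk averaged 888 ± 234 and 66.2 ± 57.1 CPM (3.74, SE 1.69). Nfatc1 averaged 251 ± 68.0 and 33.4 ± 33.3 CPM (2.91, SE 0.78), Mmp9 286 ± 125 and 76.0 ± 46.1 CPM (1.91, SE 2.18) and Atp6v0d2 166 ± 53.5 and 2.81 ± 4.86 CPM (5.87, SE 2.71). None of the 8 passed an adjusted p of 0.05 in edgeR's quasi-likelihood test, in which 1.07% of genes were called. An unadjusted p under 0.05 was reached by 4 of the 8 and by 1307 of the 12450 genes tested. The adjusted p was 0.0647 for Nfatc1, 0.229 for Acp5, 0.448 for Ctsk, 0.46 for Atp6v0d2 and 0.974 for Mmp9. DESeq2 called 2, Acp5 (adjusted p = 0.0177) and Nfatc1 (0.00229), beside 1192 of all genes tested. With edgeR's own overall dispersion, tried after the data were seen, 4 were called: Acp5 (0.000609), Ctsk (0.00816), Atp6v0d2 (0.0111) and Nfatc1 (0.0113). That fit called 247 of all genes tested. Whether the differences pass the threshold thus depended on how the spread was estimated, while each call had the direction given here.

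**Figure D2:**
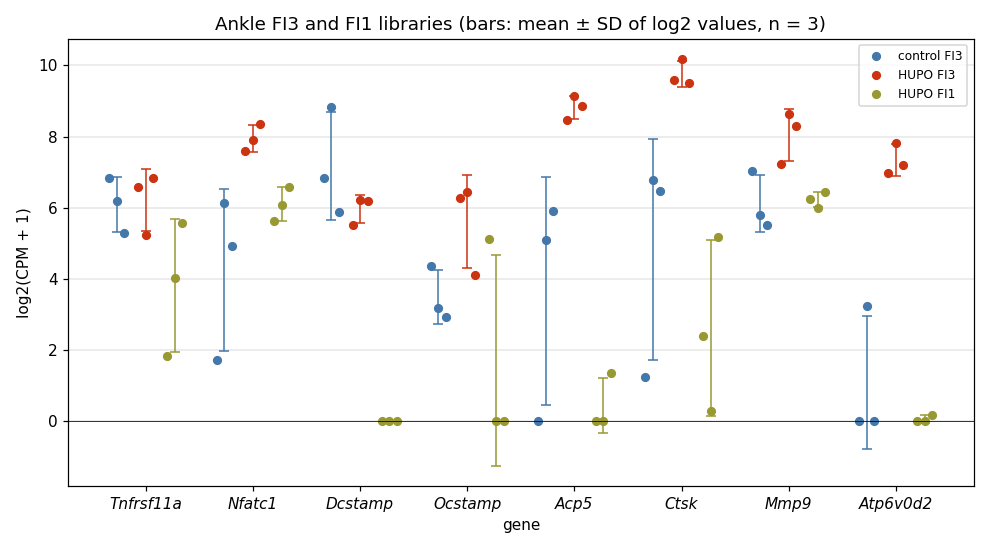
CPM of the 8 tested genes, as log2(CPM + 1), in control FI3, HUPO FI3 and HUPO FI1; points are libraries and bars are mean ± SD of log2 values, n = 3. For Acp5, Ctsk, Mmp9, Atp6v0d2 and Nfatc1 the HUPO FI3 points lie above all points of the other groups, and for Tnfrsf11a they overlap control FI3.

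All 3 HUPO FI3 libraries had more Xist than Y-linked counts, against 1 of 3 control FI3 libraries. That control library held 32.8 CPM of Acp5, 109 of Ctsk, 54.1 of Mmp9, 8.42 of Atp6v0d2 and 68.6 of Nfatc1, in each case below the lowest HUPO FI3 library. With a term for this difference in the fit, the log2 fold changes were 4.17 for Acp5, 3.16 for Ctsk and 2.80 for Nfatc1. Values with this term are not given for Mmp9 and Atp6v0d2. All HUPO FI3 libraries were alike in this respect, so it is partly confounded with arm in FI3. Its part in the differences of these genes was not tested. Fibroblast markers, some of whose cells express Ctsk, summed to 4746 to 7187 CPM in HUPO FI3 and 1184 to 1619 CPM in control FI3. Of the 15 genes, 9 and 8 had counts, and 0 were called between the arms. Col1a1 was at 1.98 to 6.82 and 0 to 1.85 CPM, and Prg4 at 29.0 to 118 and 0 to 0.998 CPM. In control FI1 the same markers summed to 2430, 12180 and 13062 CPM, beside Ctsk at 6.42, 133 and 36.6 CPM. Their part in the Ctsk level of HUPO FI3 was not tested.

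The summed levels of further marker lists did not overlap between the FI3 arms. Dendritic cell markers summed to 2063 to 2412 CPM in control FI3 and 74.3 to 298 CPM in HUPO FI3, with counts of 10 and 8 of the 10 genes. Monocyte and macrophage markers, of which all 9 had counts in both, summed to 20848 to 23714 CPM in control and 34651 to 37060 CPM in HUPO. The list of B and plasma cells summed to 34.3 to 61.0 CPM in control and 311 to 573 CPM in HUPO, where 3 of its 7 genes had counts. Nearly all of the HUPO sum was Sdc1, which encodes syndecan-1, at 305 to 573 CPM, while Ms4a1, Cd79b and Pax5 had 0 counts there. The part of these cells in the differences of the osteoclast genes was not tested.

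**Figure D3:**
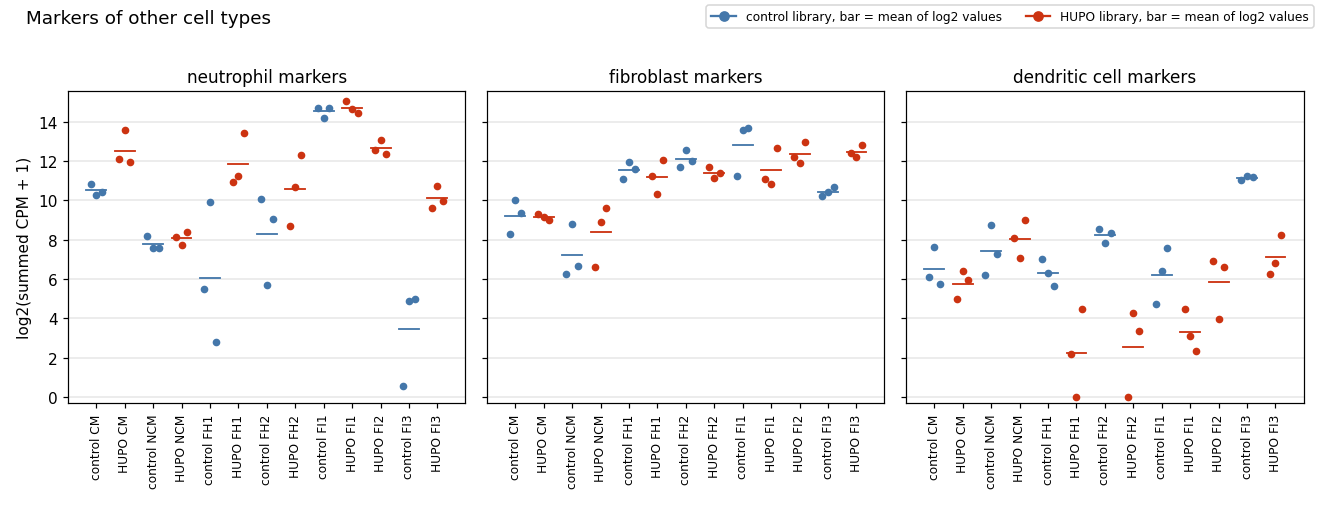
Summed CPM of markers of neutrophils, fibroblasts and dendritic cells in each library, as log2(summed CPM + 1), by population and arm; points are libraries and bars are means of the log2 values over 3 libraries. Neutrophil markers are highest in FI1 of both arms, and dendritic cell markers are highest in control FI3, at 2063 to 2412 CPM.

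In the other 5 populations no gene of the 8 passed the edgeR test between HUPO and control. The background shares of called genes were 0.562% in CM, 0.731% in NCM, 0.843% in FH1, 0.651% in FH2 and 0.225% in FI1. An unadjusted p under 0.05 was reached by 0 of the 8 in CM and 3 in NCM. It was reached by 1 in FH1, 1 in FH2 and 2 in FI1. Over all 12450 genes tested the numbers were 1387 in CM, 1181 in NCM, 891 in FH1, 959 in FH2 and 1052 in FI1. DESeq2 called 1, 2, 1, 2 and 3 of the 8 in this order, beside 1273, 1081, 798, 771 and 956 of all genes. In FH1, Tnfrsf11a averaged 77.0 ± 7.24 CPM in HUPO and 218 ± 36.2 in control without overlap (log2 fold change -1.50, SE 1.36, adjusted p = 1), as 8.34% of genes were lower without overlap. When only the 2 FH1 groups were fitted, its adjusted p was 0.0476. In FH2, Acp5 (126 ± 33.7 against 70.5 ± 10.5 CPM) and Ctsk (549 ± 183 against 188 ± 153 CPM) were higher without overlap in HUPO, as 7.12% of genes were, and neither passed the test (adjusted p = 1 for both). Dcstamp had 0 counts in HUPO FH2 against 32.9 ± 36.9 CPM in control (adjusted p = 0.243). In FI1, Acp5 was at 0.512 ± 0.887 CPM in HUPO and 27.3 ± 24.8 in control, with 0 counts in 1 control library (adjusted p = 0.132, and 0.0204 without that library). In NCM, Tnfrsf11a had counts in all 3 HUPO libraries, 4.72 ± 3.64 CPM, and in none of 3 control libraries (adjusted p = 0.093). There, 664 of the 12450 genes tested were higher in HUPO without overlap.

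Whether the difference between arms varied among the 6 populations was tested for each gene at once. None of the 8 passed in edgeR, where 1.32% of genes did. An unadjusted p under 0.05 was reached by 3 of the 8 and by 1149 of the 12450 genes tested. The adjusted p was 0.126 for Acp5, 0.19 for Tnfrsf11a and 0.275 for Ctsk. DESeq2 called these 3 genes, with adjusted p-values of 0.0126, 0.0172 and 0.0292, beside 420 of all genes tested.

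The 3 intermediate populations of HUPO mice carried the same 3 title numbers, and all their libraries had more Xist than Y-linked counts. Acp5 rose from 0.512 ± 0.887 CPM in FI1 to 461 ± 103 CPM in FI3 (log2 fold change 9.68, SE 1.76, adjusted p = 0.00118), where 1.26% of genes were called in either direction. The call held when each of the 6 libraries was left out (adjusted p = 0.00178 to 0.0184). Neutrophil markers summed to 22527 to 33855 CPM in HUPO FI1, 5165 to 8539 CPM in FI2 and 773 to 1687 CPM in FI3, with counts of 16, 16 and 13 of the 16 genes, and their part in these differences was not tested. Acp5 also rose in FI2 over FI1, to 68.6 ± 7.94 CPM (log2 fold change 6.94, SE 1.58, adjusted p = 0.0196), where 0.9% of genes were called. That call was lost without either FI1 library at 0 counts (0.146 and 0.139), and it was lost when only these groups were fitted (0.137). Acp5, Ctsk, Mmp9, Atp6v0d2, Dcstamp and Nfatc1 had every FI3 library above every FI1 library, 6 of 8 genes beside 10.5% of all genes tested. Between FI2 and FI3, edgeR called 1 gene in all (0.00803%) and none of these 8. An unadjusted p under 0.05 was reached by 2 of the 8 and by 791 of the 12450 genes tested. Acp5, Ctsk, Mmp9 and Atp6v0d2 were lower in FI2 than in FI3 without overlap, 4 of 8 genes beside 6.77% of all genes. DESeq2 called 0 of the 8 between FI2 and FI3, beside 832 of all genes. Acp5 passed when only these groups were fitted (adjusted p = 0.02), where 5 genes were called in all.

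In control mice, FI3 exceeded FI1 in Tnfrsf11a, 74.3 ± 37.6 against 0.752 ± 1.30 CPM (6.59 on the log2 scale, SE 1.74, adjusted p = 0.0407), where 1.94% of genes were called. Dcstamp rose from 0 counts in FI1 to 208 ± 215 CPM in FI3 (adjusted p = 0.0484), a mean carried mostly by the library at 454 CPM. Neither call was stable: Dcstamp lost its call when any of the 6 libraries was left out (adjusted p = 0.0714 to 0.157), and Tnfrsf11a kept it in 1 of 6 such fits (0.0209 to 0.147). The neutrophil list reached 18736 to 26438 CPM in control FI1 but no more than 31.2 CPM in control FI3, and its part in these differences was not tested. Of the 2 FH populations of control mice, none of the 8 genes differed by the edgeR test, where 0.394% of genes were called. At an unadjusted p under 0.05 there were 2, beside 667 of the 12450 genes tested. DESeq2 called 3, beside 538 of all genes.

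Control FH libraries carried more Tnfrsf11a than control FI libraries, at 179 ± 51.0 against 37.5 ± 46.8 CPM (n = 6 each) with no overlap. The lowest FH library held 113.9 CPM and the highest FI3 library 113.3 CPM. Of the 12450 genes tested, 338 were higher in control FH without overlap. FI3 held 38.3 to 113 CPM, whereas FI1 held 0 to 2.26 CPM, with counts in 1 of 3 libraries. The fit averages log2 levels over FI1 and FI3, so the low FI1 group weighs heavily in it. FH was not tested against FI3 alone. Control FI1 was also rich in neutrophil markers, whose part in this difference was not tested. The fitted difference was 4.53 on the log2 scale (SE 1.11, adjusted p = 0.0141), where 3.94% of genes were called, and the call held when each of the 12 libraries was left out (0.00479 to 0.047). It was lost without the 2 control FI1 libraries richest in fibroblast markers (0.0574, an alternative added after the data were seen). In HUPO mice none of the 8 genes was called between FH and FI, where 1.98% of genes were. An unadjusted p under 0.05 was reached by 4, beside 1534 of the 12450 genes tested. DESeq2 called 2, beside 1280 of all genes. HUPO FH held 895.7 ± 653 CPM of Ctsk and HUPO FI held 451 ± 502 CPM, the latter split between FI3 at 730.0 to 1157 and FI1 at 0.208 to 35.3 CPM. Among blood cells, Tnfrsf11a was lower in control NCM, at 0 counts, than in control CM, at 13.5 ± 21.4 CPM (adjusted p = 0.0295), where 0.884% of genes were called. The CM libraries held 0, 38.2 and 2.42 CPM, and the call was kept in 2 of 6 fits with a library left out (adjusted p = 0.00723 to 0.269).

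Ankle populations were set against blood monocytes in each arm, over FH1, FH2, FI1 and FI3 (n = 12) and over CM and NCM (n = 6). In control mice Ctsk rose from 4.90 ± 9.32 to 164 ± 173 CPM (log2 fold change 4.98, SE 1.24, adjusted p = 0.00715). Tnfrsf11a rose from 6.77 ± 15.4 to 108 ± 87.5 CPM (adjusted p = 0.00116), and Nfatc1 fell from 178 ± 105 to 71.8 ± 46.0 CPM (log2 fold change -1.32, SE 0.43, adjusted p = 0.0372). These were 3 of 8 genes beside 12.7% of all genes tested. In HUPO mice Ctsk rose from 0.0294 ± 0.072 to 673 ± 602 CPM (adjusted p = 5.4e-05) and Tnfrsf11a from 6.70 ± 6.88 to 94.3 ± 90.8 CPM (log2 fold change 3.48, SE 0.99, adjusted p = 0.0189). Mmp9 rose from 0 counts to 110 ± 127 CPM (adjusted p = 0.00331) and Atp6v0d2 from 0 counts to 74.9 ± 70.2 CPM (adjusted p = 0.00934). Ocstamp was called lower in the HUPO ankle (adjusted p = 0.0392) on group means that include 2 FH groups at 0 counts, although FI3 held its highest level. The 5 calls stood beside 11.2% of all genes tested. Of 16 neutrophil and 15 fibroblast markers, 7 and 6 were called higher in the HUPO ankle and 0 lower. In the control ankle 1 and 4 were called higher, and 1 neutrophil marker lower. Of all genes tested, 6.59% were called higher in the HUPO ankle and 6.88% in the control ankle. The part of these cells in the differences of the osteoclast genes was not tested. The comparison of HUPO arms shares no library with that of control arms.

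The Ctsk calls held in both arms when each of the 18 libraries was left out. The Tnfrsf11a call of control mice was lost without the FI1 library whose 2.26 CPM was the only signal of that group (adjusted p = 1), and without both FI1 libraries richest in fibroblast markers. In HUPO mice the Tnfrsf11a call was lost without the CM library with 6.93 CPM (0.0554) or the NCM library with 0.706 CPM (0.06). The Mmp9 call was lost without the FH2 library with 19.4 CPM, and the Atp6v0d2 call without the FI1 library with 0.128 CPM, each the only library of its group with counts (adjusted p = 1). The Nfatc1 call of control mice was kept in 7 of 18 such fits (0.0113 to 0.162), and the Ocstamp call in 5 of 18 (0.0132 to 0.111). All control blood libraries had more Y-linked than Xist counts, whereas control ankle libraries were mixed. With a term for this difference in the fit, 1020 genes were called in control ankle against blood, against 1584 without it. Mean log2 levels over groups are dominated by a group at 0 counts, so for Mmp9, Atp6v0d2 and Dcstamp in control mice only the levels above are given. Such groups also enter calls given above: control NCM held 0 counts of Tnfrsf11a and HUPO CM held 0 of Ctsk. Both HUPO blood groups held 0 counts of Mmp9 and Atp6v0d2, and HUPO FH1 and FH2 held 0 of Ocstamp. Leaving out a library of such a group still leaves the group at 0 counts.

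The wider pathway was taken from a list of 59 further genes, of which 55 passed the filter on low counts. In HUPO against control FI3, 3 of the 55 rose (beside 0.699% of all genes that rose) and 2 fell (beside 0.369%). Mmp14, which encodes a membrane-bound collagenase, rose from 24.4 ± 23.5 to 620 ± 84.1 CPM (log2 fold change 4.66, SE 1.01, adjusted p = 0.0137). Ctsb, encoding the lysosomal cathepsin B, rose from 2254 ± 184 to 4004 ± 967 CPM (0.83, SE 0.17, adjusted p = 0.00787). Tyrobp, the adaptor DAP12 of osteoclast co-stimulation, rose from 715 ± 68.2 to 1207 ± 147 CPM (0.76, SE 0.19, adjusted p = 0.0326). Jun, a subunit of AP-1, fell from 1250 ± 177 to 265 ± 26.4 CPM (-2.24, SE 0.39, adjusted p = 0.00094), and Fos, its partner, fell by 1.2 on the log2 scale (adjusted p = 0.0369). Of the 15 genes of acid secretion and matrix degradation, 2 rose and 0 fell, and the median difference between the groups' mean log2 CPM, which is not a fitted fold change, was 1.14 beside 0.11 over all genes tested.

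Nhedc2, an older symbol of Slc9b2, encodes a sodium and proton exchanger found in osteoclasts and was picked out after its values were seen. It stood at 55.7 to 89.7 CPM in the 3 HUPO FI3 libraries and at no more than 1.70 CPM in the other 36, with 0 counts in control FI3. The edgeR test did not call it in HUPO against control FI3 or in HUPO FI3 against FI1. In these comparisons 10.2% and 10.5% of all genes tested were higher without overlap. Carbonic anhydrase II (Car2), which supplies the protons, and integrin beta 3 (Itgb3) were low in HUPO FI3, at 11.8 ± 20.4 and 6.17 ± 10.7 CPM. The ligand RANKL (Tnfsf11) had counts in 1 of 39 libraries, and its decoy receptor (Tnfrsf11b) and Il34 had 0 counts in all of them.

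In FH1 and FH2, Csf1r, the receptor for M-CSF, fell in HUPO. It went from 3646 ± 446 to 1228 ± 346 CPM in FH1 (-1.57 on the log2 scale, SE 0.21, adjusted p = 1.97e-05) and from 2564 ± 189 to 1212 ± 130 CPM in FH2 (-1.08, SE 0.21, adjusted p = 0.00473). Neutrophil markers summed to 1923 to 11022 CPM in HUPO FH1 and 6.00 to 949 CPM in control FH1, and to 413 to 5129 and 51.9 to 1075 CPM in FH2. Monocyte and macrophage markers, a list that includes Csf1r itself, summed to 47694 to 61122 CPM in HUPO FH1 and 34601 to 41095 CPM in control FH1, and to 59864 to 67226 and 29777 to 36481 CPM in FH2. Their part in the differences of these genes was not tested. Lilrb3, an inhibitory receptor known as Pirb, rose in both (adjusted p = 0.00569 and 0.0115), and Ctsb rose in FH2 (log2 fold change 1.24, SE 0.18, adjusted p = 6.38e-05). Of the 55 genes 3 rose and 1 fell in FH1, beside 0.755% and 0.0884% of all genes, and 2 rose and 1 fell in FH2, beside 0.474% and 0.177%. Csf1r overlaps the gene Hmgxb3, and Ctsb overlaps Fdft1, each on the other strand, so their counts may include reads of these neighbours. In CM and NCM, Mmp14 rose from 0 counts in control to 66.8 ± 12.5 and 41.1 ± 21.2 CPM (adjusted p = 0.000347 and 0.000338). Neutrophil markers summed to 1242 to 1793 CPM in control CM, where 13 of the 16 genes had counts. They summed to 3961 to 12051 CPM in HUPO CM, where 9 had counts. S100a8 was at 4.28 to 137 CPM in control CM and 182 to 2802 CPM in HUPO CM, whereas Ngp was at 0 in every HUPO CM library. In NCM the neutrophil sums overlapped, at 187 to 296 CPM in control and 213 to 339 CPM in HUPO. The part of neutrophils in the Mmp14 differences was not tested.

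**Figure D4:**
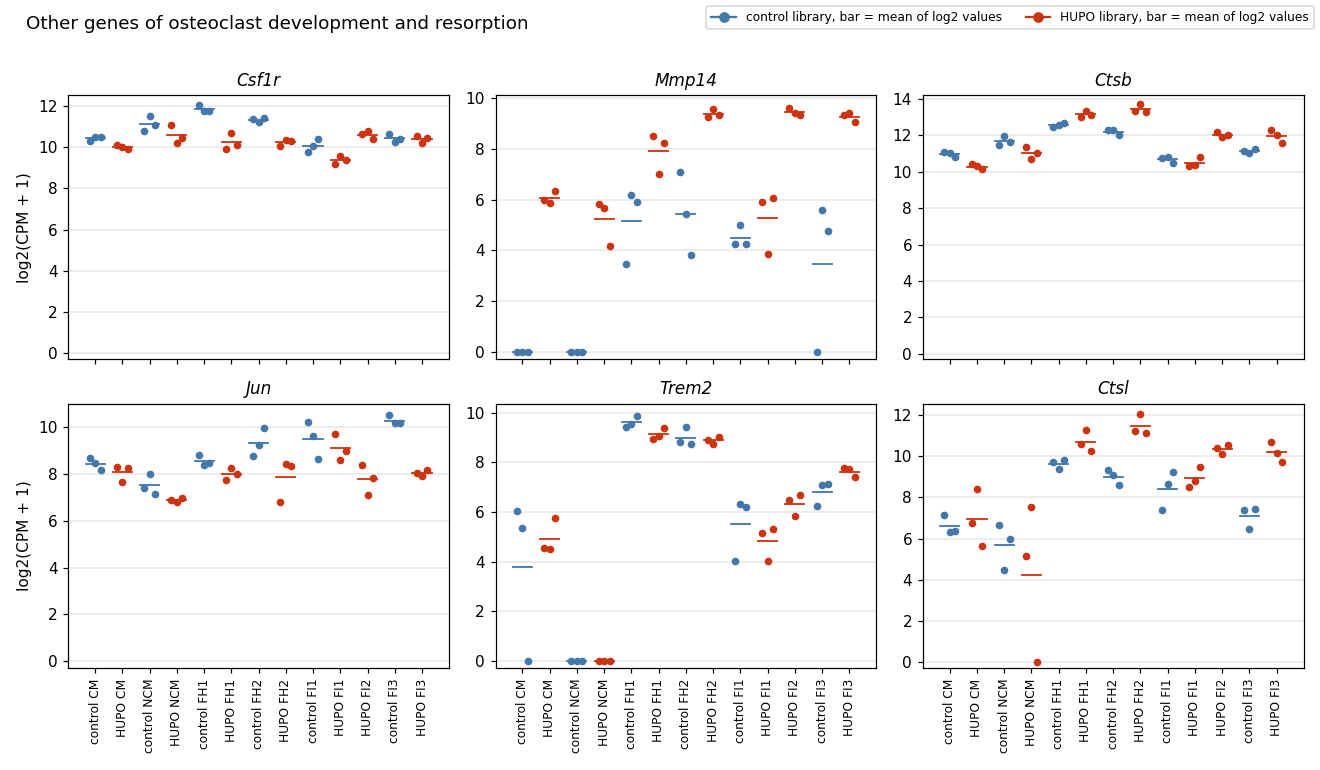
CPM of 6 further genes of osteoclast development and resorption in each library, as log2(CPM + 1), by population and arm; points are libraries and bars are means of the log2 values over 3 libraries. Csf1r is lower in HUPO FH1 and FH2 than in their controls, and Mmp14 is at 0 counts in control blood and near 620 CPM in HUPO FI3.

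Between HUPO FI3 and FI1, 5 of the 55 rose, beside 0.803% of all genes, and 0 fell. Besides Mmp14 and Ctsb they were Csf1r (1338 ± 173 against 665 ± 95.9 CPM, adjusted p = 0.00505), Ckb, a creatine kinase of osteoclast energy supply (154 ± 59.4 against 7.06 ± 6.62 CPM, adjusted p = 0.0334), and Cd44 (adjusted p = 0.034). Between ankle and blood, 12 of the 55 rose and 12 fell in control mice, beside 6.88% and 5.84% of all genes, and 16 rose and 9 fell in HUPO mice, beside 6.59% and 4.61%. Ctsl, encoding cathepsin L, rose in the HUPO ankle from 119.5 ± 128 to 1614 ± 1109 CPM (adjusted p = 0.000297). Trem2, the receptor that signals through Tyrobp, was higher in FH than in FI in control mice (adjusted p = 0.0032) and in HUPO mice (adjusted p = 0.0102).

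Likeness of pattern was measured as Pearson's r of mean log2 CPM over the 13 groups, against 12449 other genes, for the 5 of the 9 genes that had counts in at least 20 libraries, as a description without a test. The closest to Acp5 were Acp2, a lysosomal acid phosphatase (r = 0.92), Pkn2 (0.85) and 2310037I24Rik (0.85). The closest to Ctsk was Mtap6 (0.95), to Tnfrsf11a Arl2 (0.96), to Nfatc1 Doc2a (0.84) and to Ocstamp N4bp1 (0.83). Each point is a mean of 3 libraries, and libraries with the same title number occur in several groups. Among the genes themselves the highest r was that of Ctsk with Atp6v0d2 (0.83), followed by Ctsk with Tnfrsf11a (0.75), whereas Nfatc1 had r between -0.33 and 0.52 with the other 7.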

How the data were processed

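The deposited values were whole-number counts of reads per gene symbol, 1 table of 23337 symbols per library, per the file headers. Cells (more than 400 per library, per the labels' protocols) were amplified with SMART-Seq v4, tagmented with Nextera XT and sequenced as single 75 bp reads on a NextSeq 500. The submitters' processing notes name mm10, FastQC, STAR, HTSeq and Cufflinks, with versions and roles not given in the sources used here. The authors removed low-quality libraries, the least correlated control libraries and HUPO F4/80-high libraries with neutrophil transcripts, per the series design text, which lowers the spread among the libraries kept.

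Counts were analysed with edgeR 4.0.16 in R 4.3.3: expression filter on the 13 groups, TMM scaling (factors 0.83 to 1.16), trended dispersion (median 2.29) and 1 robust quasi-likelihood fit of all 39 libraries with a mean per group (26 residual degrees of freedom). Tests were 2-sided. A gene was called at a Benjamini-Hochberg adjusted p under 0.05 over 12450 genes, and an adjusted p without another name is from this test. No fold is given against a group at 0 counts. With 3 libraries against 3, an exact permutation test cannot give a p below 0.1 and was not used. Per kb levels used the union of GENCODE M21 exons. The script was tested on simulated counts with known fold changes. These had a dispersion far below the median of 2.29 here, and only well-detected genes were changed. That test therefore does not show how well differences are found in these data.

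The genes and lists were chosen with earlier results of these data known. Besides the 9 genes, up to 4 genes of the wider osteoclast list were named per comparison: those with the smallest p among called genes with a mean of at least 32 CPM in the higher group and ranges that did not overlap. A gene that met this rule is not reported here. Fos, Nhedc2, Car2, Itgb3, Tnfsf11, Tnfrsf11b, Il34 and Calcr were named outside that rule, Fos and the genes from Nhedc2 to Itgb3 after their values were seen. Alternatives were DESeq2 1.42.0, RLE size factors, no filter on low counts, fits of only the groups compared, each library left out, and a replicate block; edgeR's own dispersion, a term for Xist against Y-linked counts, and leaving out 2 control FI1 libraries were added after the data were seen. The labels do not say whether libraries came from separate mice or pools, so p-values measure the spread between these libraries. None of 39 pairs of libraries of a group held identical counts.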

Additional observations from a re-analysis of the deposited data

Results flagged for a closer look

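For Tnfrsf11a, every HUPO library lay above every control library in NCM (0.706 to 7.80 against 0 CPM) and FI1 (2.59 to 46.9 against 0 to 2.26 CPM), and every HUPO library lay below every control library in FH1 (68.8 to 82.4 against 191 to 259 CPM). Of the 12450 genes tested, 664 were higher in HUPO without overlap in NCM, 942 were higher in FI1 and 1038 lower in FH1. The HUPO NCM library with 0.706 CPM of Tnfrsf11a held 4 counts of it. The opposite order in these populations brought the gene up for a closer look. The edgeR test of whether the difference between arms varied among the 6 populations gave an adjusted p of 0.19 for this gene, and the FH1 difference was not tested against NCM or FI1 alone. Only groups of 4 or more libraries can be examined for a library far from the others, and all groups here had 3.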

How the results depend on the processing

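No alternative reversed the direction of a result for the 9 genes that it or the main fit called. Results called in neither were not checked for this. Scaling by plain totals or by RLE left the highest group of each of the 9 genes as it was. DESeq2 called more genes than edgeR for HUPO against control in CM (1273, of which 1 of the 9), NCM (1081, 2), FH1 (798, 1), FH2 (771, 2), FI1 (956, 3) and FI3 (1192, 2), for the variation among populations (420, 3), for ankle against blood in control (3249, 6) and HUPO mice (2897), for control NCM against CM (1241, 2), for FH against FI in control (1802, 4) and HUPO mice (1280, 2), for control FH2 against FH1 (538, 3), for FI3 against FI1 in control (1626) and HUPO mice (1139, 4), and for HUPO FI2 against FI1 (1267, 2) and FI3 (832). The counts in the edgeR fit were 70, 91, 105, 81, 28, 133, 164, 1584, 1395, 110, 491, 247, 49, 241, 157, 112 and 1 in that order. Many DESeq2 calls of the 9 are of genes with 0 counts in a whole group.

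With edgeR's own overall dispersion the counts were 136 (CM), 155 (NCM), 176 (FH1), 176 (FH2) and 247 (FI3, 4 of the 9) for HUPO against control, 304 for control NCM against CM (0 of the 9), 1001 and 465 for FH against FI in control (2) and HUPO mice (3), 515 and 381 for FI3 against FI1 in control and HUPO mice (3 in HUPO), 384 and 7 for HUPO FI2 against FI1 and FI3, and the 9 gave 3 calls for HUPO ankle against blood and 1 for the variation among populations. In fits of only the groups compared they were 11 (CM), 9 (NCM) and 0 (FI1; 1 of the 9 in FH1) for HUPO against control, 25 for control NCM against CM (0), 28 for control FH2 against FH1, 77 for control FI3 against FI1 (0), 494 for HUPO FH against FI (3), 286 for HUPO FI3 against FI1 (4), 5 for HUPO FI2 against FI3 (1), and 0 of the 9 for HUPO FI2 against FI1. RLE factors gave 3 genes for HUPO FI2 against FI3, and no filter on low counts gave 1 of the 9 for control FI3 against FI1. With the Xist term the counts were 44 in CM, 3 for HUPO FI2 against FI3, 1020 for control ankle against blood and 0 of the 9 for control FI3 against FI1. Without the 2 control FI1 libraries they were 7 for HUPO against control in FI1, 273 for control FH against FI, 105 for control FI3 against FI1 (0 of the 9) and 993 for control ankle against blood.

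Libraries with the same title number hardly deviated together (correlations -0.014 to 0.046), so the numbers were not taken as pairs. Their median correlation still lay above that of other pairs in each arm and tissue. It was 0.018 against -0.0004 in control ankle, 0.0095 against -0.0045 in control blood, 0.0070 against -0.0018 in HUPO ankle and 0.043 against -0.011 in HUPO blood. Libraries of the same number also agreed in whether Xist or Y-linked counts were higher. The main tests within an arm ignore any source that such libraries share. With a replicate block, fitted within an arm and tissue on 2 to 7 residual degrees of freedom, the counts were 0 for control NCM against CM, FH2 against FH1 and FI3 against FI1 (0 of the 9 in each), 54 for control FH against FI (0, with an adjusted p of 0.131 for Tnfrsf11a), 353 for HUPO FI3 against FI1 (3), 295 and 28 for HUPO FI2 against FI1 and FI3, and 1 of the 9 for HUPO FH against FI. No paired analysis was possible because HUPO and control groups share no number for the comparison of arms, and blood and ankle share fewer than 2. Some title numbers of control ankle libraries carry a suffix that the labels do not explain. They were taken as numbers of their own, and read without the suffix 1 of them would also occur in control blood.

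Leaving out each library in turn gave 42 to 116 genes in CM, 59 to 183 in NCM, 75 to 103 in FH1, 35 to 55 in FH2, 4 to 90 in FI1 and 65 to 138 in FI3 for HUPO against control (0 to 1 of the 9 in FI1 and FI3), 139 to 194 for the variation among populations (0 to 1), 1257 to 1497 and 1108 to 1273 for ankle against blood in control (2 to 3) and HUPO mice (3 to 5), 72 to 142 for control NCM against CM (0 to 1), 349 to 472 and 180 to 223 for FH against FI in control (1 to 2) and HUPO mice, 30 to 46 for control FH2 against FH1, 161 to 225 and 101 to 128 for FI3 against FI1 in control (0 to 1) and HUPO mice, and 63 to 95 and 1 to 8 for HUPO FI2 against FI1 (0 to 1) and FI3. The cause of these changes was not tested. Depth limits levels below 0.105 to 0.179 CPM per group.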
